A study of Mus musculus with 6 samples.

Results

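The collagen chain genes were every listed gene whose symbol has the form Col, a type number, a and a chain number. There were 44 of them among the 60832 genes listed, and they were divided into 11 chains of fibril-forming collagens, 6 chains of type IV collagen (Col4a1 to Col4a6) and 27 others. They were measured by RNA-seq in 6 libraries labelled as mouse liver sinusoidal endothelial cells (LSECs), the cells that line the liver's capillaries. 3 libraries were labelled bevacizumab-sensitive and 3 bevacizumab-resistant, both from colorectal cancer liver metastasis (CRCLM) xenografts. The tumor cells were HCT116, an established line of human colorectal cancer, injected into the liver of male BALB/c-Nu mice, which lack T cells. By the study's methods, resistance followed prolonged treatment with bevacizumab, an antibody against VEGF-A, and the other arm received control IgG. The cells were taken from digested metastatic tissue with anti-CD146 beads and kept in culture for 24 h. The sources used here do not say whether each library came from a separate mouse, so p-values measure the spread between these libraries, which may be technical. The groups are compared to ask which collagens differ between the resistant and the sensitive libraries. Loss of response to the antibody and prolonged exposure to it cannot be told apart in this design.

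Collagens are matrix proteins whose chains wind around each other in threes. Fibrillar collagens such as types I, III and V make the tensile fibrils of scar and tumor stroma, and in the liver they come mainly from activated stellate cells and fibroblasts. Type IV collagen forms the sheet of basement membranes and is made by endothelial cells among others. Healthy sinusoids have no continuous basement membrane, and its deposition is known as part of capillarization.

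The libraries held 17599326 to 20726684 counts, and the collagens took 0.0309% to 0.0562% of them. A count of 0 allows a level of up to 0.145 to 0.170 CPM (the count divided by the total of its library, times 1000000), the level of 3 counts, which covers counting error only. Macrophage markers stood far above those of LSECs in summed CPM, and markers of other cell types were also present. Which cells the collagen counts came from was not tested. Against the sensitive libraries, 13 of 14 pan-endothelial markers were below 0 in log2 fold change in the resistant ones (median -1.14). Of the 14, 5 (Vwf, Erg, Tek, Egfl7 and Emcn) were lower at an unadjusted p of 0.05 by edgeR, or 35.7%. Among all 15474 tested genes 393 were lower at that threshold. Of the 12 LSEC markers 10 were below 0 (median -0.41), and 1, Kdr, was lower at that threshold (unadjusted p = 0.0277 by edgeR). All 8 neutrophil markers were below 0 (median -2.01) with sums of 107.6 to 5107 CPM, and 7 of 8 tested hepatocyte markers were above 0 (median 1.05). Of these hepatocyte markers 2, Hnf4a and Tat, were higher at an unadjusted p of 0.05 by edgeR, or 25%, at 0 to 47 counts. Among all tested genes 83 were higher at that threshold. Lower at it were also 1 of 10 tested stellate and fibroblast markers, Rgs5, and 1 of 14 macrophage markers, Timd4. No marker of these lists passed the adjusted threshold. Their part in the collagen differences was not tested. The 14 macrophage markers summed to 24749 to 38022 CPM, the 12 LSEC markers to 315.3 to 774.2 CPM and the 14 pan-endothelial markers to 83.4 to 541.0 CPM. Sensitive replicate 2 stood apart: its log2 CPM correlated with those of the others at 0.860 to 0.901, against 0.954 to 0.974 among the others, and 27 collagens were counted in it against 33 to 38.

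Of the 44 collagen genes, 26 passed a filter on low counts: 8 fibrillar, 4 type IV and 14 others. The promoters of 35 were found in the RefSeq sequences of GRCm38.p6, and 3 short motifs were searched on both strands in the 250 bases before the start. The letters GGGCGG stood in 60% of those 35 genes against 32.7% of all 32851 promoters, CCAAT in 34.3% against 33.8%, and TATAAA in 14.3% against 12.4%. A match is a description of letters and not of a bound site. Both windows below are from fibrillar chains whose highest library was resistant replicate 2, and they differ in these letters. Col3a1 is at chr1:45311288-45311537 (plus strand), with TATAAA in capitals. Col5a1 is at chr2:27886175-27886424 (plus strand), with GGGCGG or its reverse complement in capitals. The annotated 5′ ends of Col4a1 (minus strand) and Col4a2 (plus strand) overlap by the 22 bases at chr8:11312805-11312826, shown because these chains are compared as a pair. They are printed on the plus strand with no motif in capitals, and they hold GGGCGG in lower case.
Col3a1: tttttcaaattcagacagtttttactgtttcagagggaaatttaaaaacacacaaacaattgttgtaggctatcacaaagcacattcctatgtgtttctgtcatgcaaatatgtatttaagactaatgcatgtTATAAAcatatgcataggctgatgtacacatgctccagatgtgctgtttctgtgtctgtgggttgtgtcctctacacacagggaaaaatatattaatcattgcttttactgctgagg
Col5a1: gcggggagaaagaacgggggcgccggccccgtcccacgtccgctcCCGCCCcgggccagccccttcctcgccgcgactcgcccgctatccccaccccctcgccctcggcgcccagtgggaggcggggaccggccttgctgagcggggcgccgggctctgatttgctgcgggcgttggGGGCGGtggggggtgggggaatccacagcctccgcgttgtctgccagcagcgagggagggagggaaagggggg
Col4a1 and Col4a2 start sites: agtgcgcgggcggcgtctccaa

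The type IV chains Col4a1 and Col4a2 were the most abundant collagens by FPKM. Mean FPKM over the 6 libraries was 21.6 for Col4a1 and 15.0 for Col4a2. The other tested type IV chains, Col4a5 and Col4a6, stood at 0.784 and 0.150. Among the fibrillar chains the mean FPKM was 7.92 for Col1a1, 3.55 for Col5a2, 2.76 for Col1a2, 1.33 for Col11a2 and 1.24 for Col3a1. Col20a1 led the other chains at 1.84. The length used in these FPKM matches all annotated exons merged, at 12426 bases for Col1a2, 9591 for Col5a2 and 6563 for Col1a1. The order of genes therefore depends on that length. In mean CPM, Col1a2 and Col5a2 stood at 25.6 and 29.0 in the sensitive and at 43.0 and 39.0 in the resistant libraries.

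**Figure D1:**
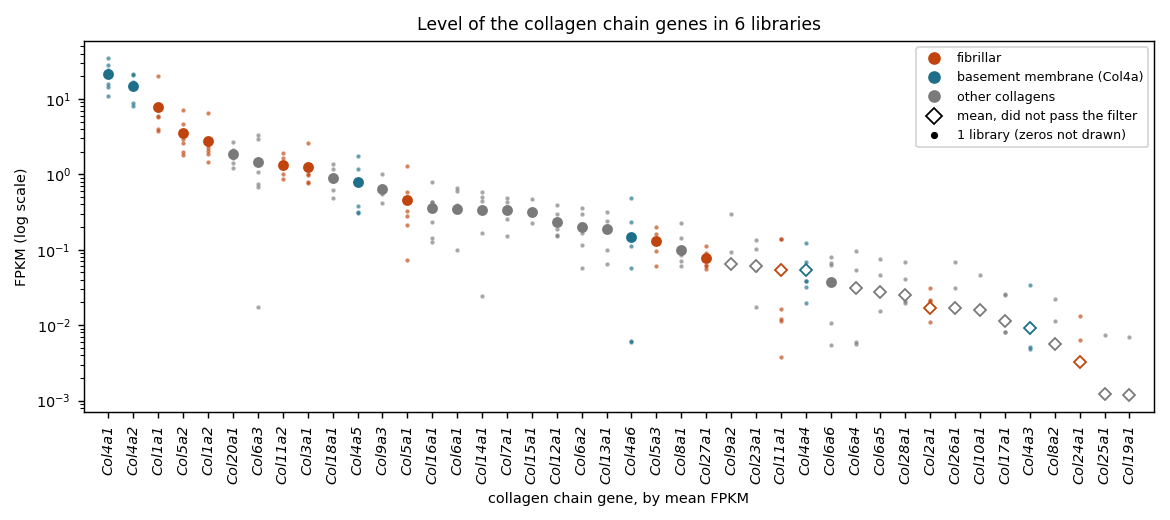
FPKM (log axis) of the collagen genes, with 1 point for each library and the classes in different colours. Col4a1 and Col4a2 have the highest mean FPKM, at 21.6 and 15.0.

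No collagen gene passed the test of a difference between resistant and sensitive libraries. The nearest was Col6a3, a type VI chain, which was lower in all 3 resistant libraries. None of the 26 tested passed an adjusted p of 0.05 in edgeR's quasi-likelihood test, where 0 of 15474 genes (0%) did, and none passed at an unadjusted p of 0.05, where 3.08% of all genes did. The fold changes of the 26 ran from -2.37 to 1.16 on the log2 scale, with 15 above 0 and 11 below, and a median of 0.13 against 0.0078 over all genes. The median was 0.44 for the 8 fibrillar chains, 0.30 for the 4 type IV chains and -0.093 for the 14 others. In CPM scaled by library total, every resistant library was below every sensitive library in 2 of the 26 genes, Col6a3 and Col15a1. Of all tested genes, 3.38% were lower in this way. With the CPM divided by the TMM normalization factors, the groups overlap for Col15a1. Without resistant replicate 2, 10 of the 26 fold changes were above 0 and 16 below.

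**Figure D2:**
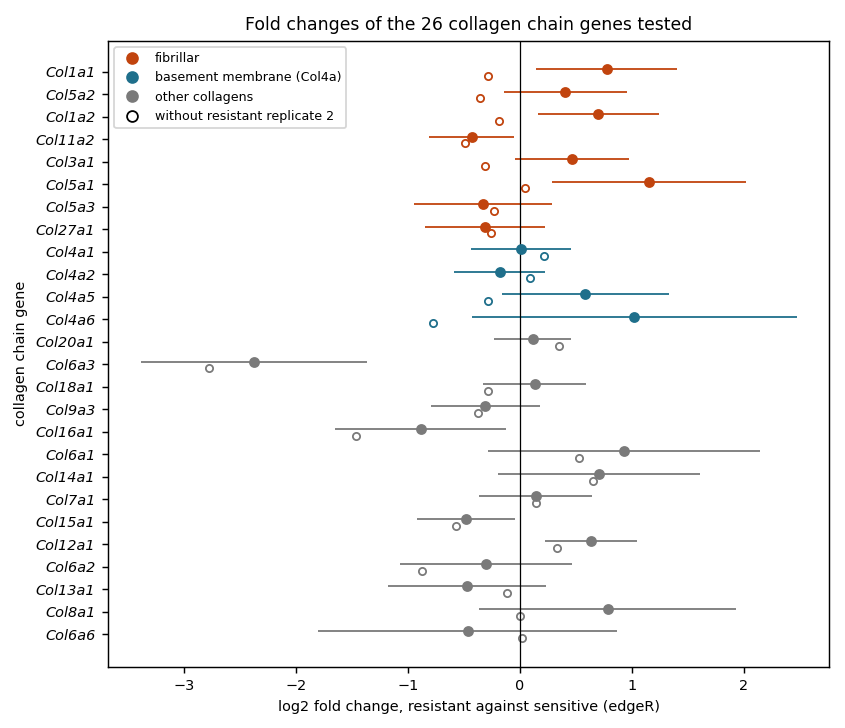
Log2 fold change of resistant over sensitive libraries (points) and its standard error (bars) from edgeR, by collagen class. Open circles leave out resistant replicate 2, and among the fibrillar chains the sign then changes for Col1a1, Col1a2, Col3a1 and Col5a2.

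In 5 of the 8 tested fibrillar chains 1 library, resistant replicate 2, was the highest. Col1a1 and Col1a2 are the chains of type I collagen, the main collagen of scar tissue, and Col1a1 lies on the plus strand at chr11:94936224-94953042 (GRCm38). Col1a1 stood at 51.4, 37.3 and 24.6 CPM in sensitive replicates 1 to 3 and at 26.3, 133.0 and 39.1 CPM in resistant replicates 1 to 3. Resistant replicate 2 was the highest, and the other resistant libraries lay within the sensitive range. The log2 fold change was 0.78 (SE 0.630, adjusted p = 0.940 by edgeR), and -0.29 without resistant replicate 2. Col1a2 stood at 30.4, 28.0 and 18.4 CPM in the sensitive libraries and at 23.0, 81.0 and 25.0 CPM in the resistant libraries. Its log2 fold change of 0.70 (SE 0.542, adjusted p = 0.940 by edgeR) became -0.19 without the same library.

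Types III and V contribute to the same fibrils. Col5a2, a chain of type V collagen, stood at 44.9, 24.8 and 17.4 CPM in the sensitive libraries and at 19.0, 69.6 and 28.5 CPM in the resistant libraries. Resistant replicate 2 was again the highest, and the groups overlapped. The log2 fold change was 0.41 (SE 0.551), and -0.35 without that library. Col3a1, the chain of type III collagen, stood at 12.2, 10.0 and 7.83 CPM in the sensitive libraries and at 9.65, 25.7 and 7.54 CPM in the resistant libraries. Col5a1, the partner of Col5a2, stood at 5.04, 0.625 and 1.80 CPM against 2.41, 11.1 and 2.81 CPM. Both were chosen for naming after their values were seen. Both were highest in resistant replicate 2, and the other resistant libraries lay below sensitive replicate 1, so that the groups overlapped. Their log2 fold changes were 0.47 (SE 0.508) and 1.16 (SE 0.868), and -0.31 and 0.050 without it. Col11a2, a fibrillar chain known from cartilage, followed no such course, at 11.3, 13.4 and 5.98 CPM in the sensitive libraries and 8.83, 8.35 and 6.97 CPM in the resistant libraries. Its groups overlapped, with a log2 fold change of -0.43 (SE 0.380). The remaining tested fibrillar chains, Col5a3 of type V and Col27a1, a minor fibrillar collagen, held 8 to 29 counts in a library and overlapped between the groups, with log2 fold changes of -0.33 and -0.31.

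**Figure D3:**
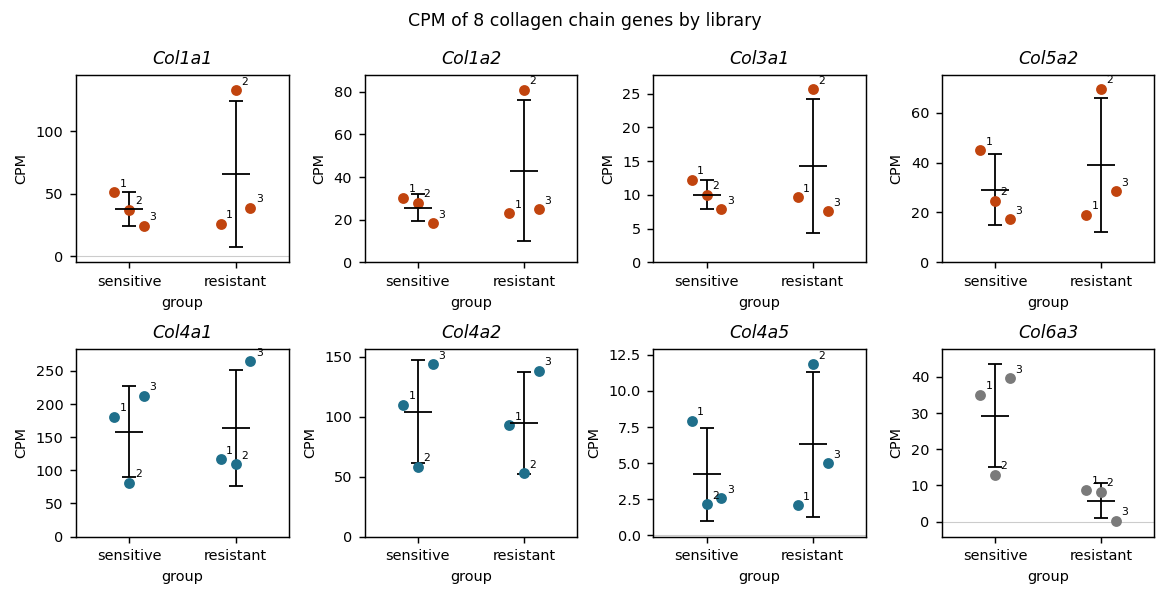
CPM of 8 collagen genes in each library, with points numbered by replicate and bars for the mean and SD of each group (n = 3). Resistant replicate 2 is the highest point for Col1a1, Col1a2, Col3a1, Col5a2 and Col4a5, and all 3 resistant points lie below the sensitive points for Col6a3.

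Resistant replicate 2 was the highest library for 11 of the 26 tested collagens (42.3%) and for 10.3% of all tested genes. These 11 were 5 fibrillar chains, 2 type IV chains and 4 others (Col18a1, Col6a1, Col12a1 and Col8a1), named after their values were seen. Its level over the mean of the other 5 libraries was 3.72-fold for Col1a1, 3.25-fold for Col1a2, 2.72-fold for Col3a1, 2.59-fold for Col5a2 and 4.38-fold for Col5a1, and 0.898-fold, 0.776-fold and 0.706-fold for the other fibrillar chains Col11a2, Col27a1 and Col5a3. Markers of other cells moved with it. All 14 stellate and fibroblast markers were counted there, but also in sensitive replicate 3 and resistant replicate 1. In resistant replicate 2 the 14 summed to 131.8 CPM, against 31.1 to 76.0 CPM elsewhere. Most of that sum was Acta2 and Pdgfra: resistant replicate 2 was the highest library for 5 of the 10 markers tested, but the lowest for Rgs5 (0.303 CPM) and Thy1 (0.506 CPM), and the median FPKM of the 14 was 0.134 there against 0.109 to 0.282 elsewhere. Acta2, smooth muscle actin, stood at 91.7 CPM against 12.4 to 41.5, Pdgfra, a fibroblast receptor, at 27.2 CPM against 7.67 to 25.2, and Lrat, which defines quiescent stellate cells, at 0 to 4 counts in any library. The sum of hepatocyte markers was highest there, at 156.8 CPM against 31.9 to 96.5, and that of pan-endothelial markers lowest, at 83.4 CPM against 288.4 to 541.0. The part of these cells in the collagen levels was not tested. In bulk libraries, fewer cells of a type and less RNA per cell cannot be told apart.

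The main type IV chains varied between libraries more than between groups. Col4a1 and Col4a2 make the common basement membrane heterotrimer. Col4a1 stood at 180.8, 81.5 and 212.7 CPM in the sensitive libraries and at 117.1, 108.9 and 264.5 CPM in the resistant libraries. The highest and the lowest library were in different groups, and the groups overlapped. The log2 fold change was 0.012 (SE 0.445, adjusted p = 0.997 by edgeR). Col4a2 stood at 110.1, 58.4 and 143.8 CPM in the sensitive libraries and at 93.1, 53.0 and 138.4 CPM in the resistant libraries. Replicate 3 was the highest in both groups, and the groups overlapped. The log2 fold change was -0.18 (SE 0.409, adjusted p = 0.947 by edgeR). The ratio of Col4a1 to Col4a2 in FPKM ranged from 1.24 to 1.46 in sensitive and from 1.12 to 1.82 in resistant libraries. Col4a1 exceeded Col1a1 in FPKM 1.92- to 7.61-fold in the sensitive libraries and 3.92- and 5.95-fold in resistant replicates 1 and 3, and in resistant replicate 2 the ratio was 0.720.

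Col4a5 and Col4a6, neighbours on chromosome X that encode chains of specialized basement membranes, were, like the chains of types I, III and V named above except Col5a3, highest in resistant replicate 2. Col4a5 stood at 7.94, 2.16 and 2.58 CPM in the sensitive libraries and at 2.07, 11.8 and 4.99 CPM in the resistant libraries. Col4a6 stood at 1.88, 0.455 and 0.0486 CPM in the sensitive libraries and at 0.0482, 3.84 and 0.884 CPM in the resistant libraries. Resistant replicate 2 was followed by sensitive replicate 1 in both, so that the groups overlapped. Their log2 fold changes were 0.59 (SE 0.742) and 1.03 (SE 1.45), and -0.29 and -0.78 without resistant replicate 2. Col4a6 rested on 1 to 76 counts in a library. Col4a3 and Col4a4, chains best known from the kidney filter, did not pass the filter, with 0 to 7 and 4 to 23 counts.

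**Figure D4:**
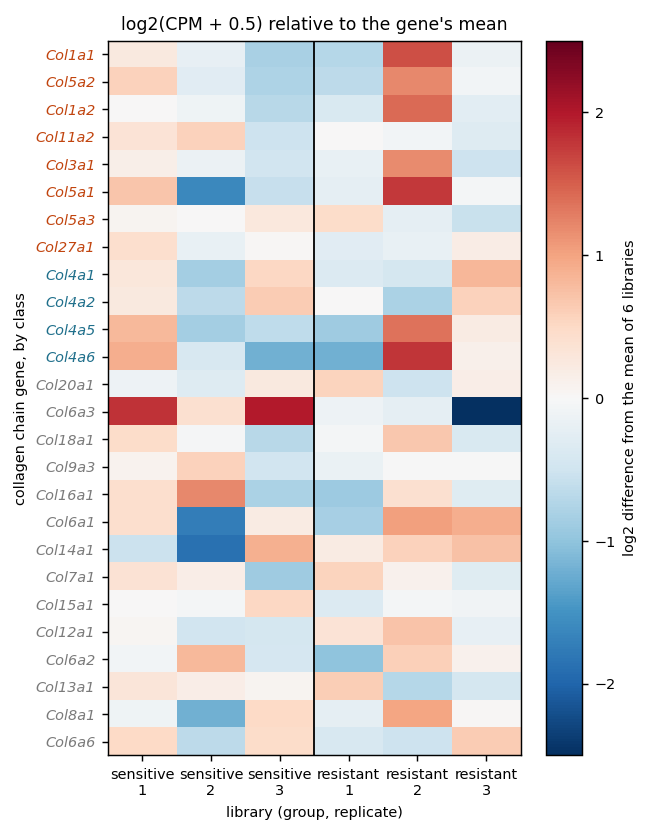
Log2 of CPM plus 0.5 for the tested collagen genes in each library, centred on the mean of each gene over the 6 libraries. The column of resistant replicate 2 is above the mean for Col1a1, Col1a2, Col3a1, Col5a1, Col5a2, Col4a5 and Col4a6.

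Among the other chains, Col6a3 had the lowest fold change of the 26 collagens. Col6a3 is a chain of the beaded filaments of type VI collagen, which anchor cells to the surrounding matrix, and lies on the minus strand at chr1:90765923-90843971 (GRCm38). It stood at 35.0, 13.0 and 39.6 CPM in the sensitive libraries and at 8.83, 8.24 and 0.208 CPM in the resistant libraries, from 4 to 814 counts. Every resistant library was below every sensitive library, with resistant replicate 3 far below the others. The log2 fold change was -2.37 (SE 1.01), with an unadjusted p of 0.0512 and an adjusted p of 0.940 by edgeR. Without resistant replicate 3 the fold change was -1.81 and the unadjusted p 0.00916, and DESeq2 gave an unadjusted p of 0.00863 and an adjusted p of 0.570. The unadjusted p also passed 0.05 in limma-voom (0.0208), in limma on log2(FPKM + 1) and log2(FPKM + 0.1) (0.00964 and 0.0227), and in edgeR without sensitive replicate 2 (0.0466). In edgeR it did not pass with no filter on counts (0.132), RLE scaling (0.05003), library totals alone (0.0548) or a replicate block (0.0775). Nor did it pass when any of the other 4 libraries was left out (0.0712 to 0.106 by edgeR). With at least 10 counts required in every library, Col6a3 was not tested. Its log2 fold change ran from -3.40 (limma-voom) to -1.19 (log2(FPKM + 1)) over these settings, and its adjusted p never passed. The share of all genes that did so was 1.07% without resistant replicate 3, 4.74% in DESeq2, 2.48% in limma-voom, 3.06% and 2.86% on the FPKM scales and 3.94% without sensitive replicate 2. Its partner chain Col6a1 stood at 1.73, 0 and 1.41 CPM in the sensitive libraries and at 0.434, 2.88 and 2.60 CPM in the resistant libraries. The groups overlapped, and the log2 fold change was 0.93 (SE 1.22), of opposite sign to Col6a3.

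Col15a1 and Col18a1 encode the multiplexins, basement membrane collagens of which Col18a1 is the precursor of endostatin. Col15a1, named after its values were seen, stood at 1.99, 1.88 and 3.02 CPM in the sensitive libraries and at 1.45, 1.87 and 1.82 CPM in the resistant libraries. In CPM scaled by library total the groups did not overlap, although sensitive replicate 2 and resistant replicate 2 were almost equal. With the CPM divided by the TMM normalization factors (1.07 in sensitive replicate 1, 0.986 in resistant replicate 2), the groups overlap. Col15a1 had a log2 fold change of -0.48 (SE 0.439). Col18a1 stood at 8.25, 5.74 and 3.45 CPM in the sensitive libraries and at 5.69, 9.66 and 4.42 CPM in the resistant libraries. The groups overlapped, and the log2 fold change was 0.13 (SE 0.459).

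Several remaining chains belong to collagens that decorate the surface of fibrils. Col20a1 stood at 8.40, 7.22 and 10.9 CPM in the sensitive libraries and at 13.8, 6.22 and 10.4 CPM in the resistant libraries. Col9a3, a cartilage chain, stood at 2.60, 3.86 and 1.61 CPM against 2.12, 2.43 and 2.39 CPM. Of its exon bases 6.07% are shared with the neighbouring gene Tcfl5, the largest such share of a tested collagen, and the strand used in counting is not given in the sources used here. Col16a1 stood at 2.90, 5.34 and 0.973 CPM against 0.868, 2.88 and 1.56 CPM. The groups overlapped for all 3, with log2 fold changes of 0.12 (SE 0.345), -0.31 (SE 0.487) and -0.89 (SE 0.768). Without sensitive replicate 2, the highest library of Col9a3 and Col16a1, the values of both moved, to 0.15 and -0.089. Of the 18 collagen genes that did not pass the filter, Col9a1 and Col22a1 had 0 counts in every library and the other 16 reached at most 35 counts in a library. Col26a1, singled out after its values were seen, had 5, 10 and 0 counts in the sensitive and 0 in the resistant libraries. With no filter its unadjusted p was 0.0459 by edgeR, where 5.98% of 34055 genes passed. Col14a1, another fibril-surface chain named after its values were seen, had 23, 3 and 83 counts in the sensitive and 48, 62 and 68 in the resistant libraries. It overlapped between the groups, and only without sensitive replicate 3 was its unadjusted p under 0.05 by edgeR (0.0345, where 6.28% of all genes passed).

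Summed by class, the fibrillar chains stood at 158.0, 117.4 and 78.5 CPM in the sensitive libraries and at 91.6, 332.2 and 111.9 CPM in the resistant libraries. Resistant replicate 2 was the highest, and the other resistant libraries lay within the sensitive range. The means were 118.0 ± 39.8 and 178.6 ± 133.4 CPM (SD, n = 3 each), a ratio of 1.51, and without resistant replicate 2 the log2 ratio turned from 0.60 to -0.21. The type IV chains summed to 268.1 ± 111.6 and 266.8 ± 124.5 CPM, a ratio of 0.995. The other chains stood at 76.2, 48.2 and 74.3 CPM in the sensitive libraries and at 50.0, 52.1 and 36.5 CPM in the resistant libraries. Their groups overlapped through sensitive replicate 2. The means were 66.3 ± 15.6 and 46.2 ± 8.49 CPM, a ratio of 0.697. Col6a3 alone had mean CPM of 29.2 and 5.76. In resistant replicate 2 the fibrillar chains took 59.1% of the collagen counts, against 15.3% to 38.0% in the others.

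**Figure D5:**
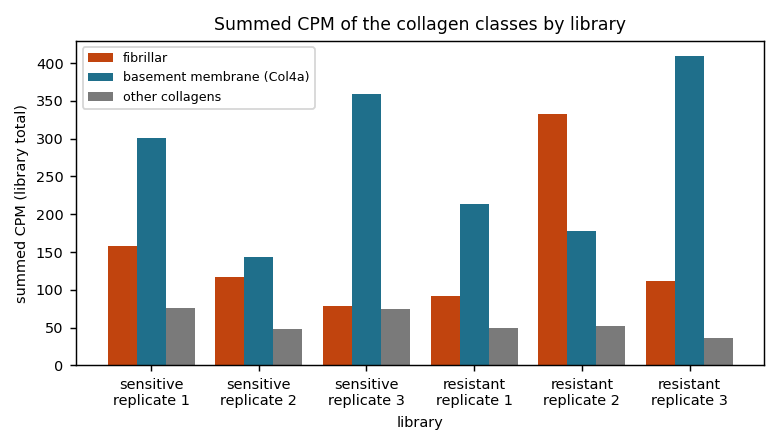
Summed CPM of the fibrillar, type IV and other collagen chains in each library. Resistant replicate 2 is at 332.2 CPM for the fibrillar chains, where the other 5 libraries are at 78.5 to 158.0.

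Genes that fold, secrete, process, crosslink and bind collagen were taken as a list of 46, of which 39 were tested. None passed either threshold, at 0% and 3.08% of all genes. The fold change was above 0 for 33 and below 0 for 6, with a median of 0.30. The 12 tested genes of proline and lysine modification were all above 0, at 0.059 to 0.65. Proline hydroxylation stabilizes the collagen helix, and lysine hydroxylation serves glycosylation and crosslinking. Sensitive replicate 2 was the lowest library for 9 of these 12 and for 47.7% of all tested genes. Without it 11 of the 12 were above 0, and over the 39 genes the median was 0.11, with 29 above 0 and 10 below. In P4ha1, P3h1, P3h3 and Plod3 of this group, and in Mia3, every resistant library exceeded every sensitive one, as in 5.01% of all genes. Mia3 exports procollagen from the endoplasmic reticulum. The closest libraries were nearly equal in P4ha1 (131.6 CPM resistant, 130.8 sensitive), P3h1 (19.9 and 19.8), Plod3 (151.9 and 151.7) and Mia3 (134.7 and 134.5). In P3h3 they stood at 6.78 and 6.08 CPM. These CPM were scaled by library total. The TMM normalization factors were 0.881 and 0.996 in sensitive replicates 2 and 3 and 1.07 in resistant replicate 1. With the CPM divided by the TMM factors, the groups overlap in P4ha1, P3h1, Plod3 and Mia3, and remain separate in P3h3. P4hb, a subunit of prolyl hydroxylase, stood at 0.27 (SE 0.250), Colgalt1, which adds galactose to collagen, at 0.18 and Mia3 at 0.38. Mia3 stood at 51.9 CPM in sensitive replicate 2 and at 134.0 to 150.1 CPM elsewhere, and without that library its fold change was 0.082 and that of Colgalt1 0.059. Serpinh1, the collagen chaperone HSP47, stood at 51.8, 38.1 and 20.9 CPM in the sensitive libraries and at 20.5, 86.6 and 37.9 CPM in the resistant libraries. It shared the high value in resistant replicate 2 with the fibrillar chains, and its log2 fold change turned from 0.35 to -0.42 without that library.

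Of the processing genes, Bmp1, a procollagen C-proteinase, had a log2 fold change of 0.39 and Pcolce2, which enhances that cleavage, -0.68 (SE 0.344, unadjusted p = 0.0896 by edgeR). Pcolce2 stood at 101.4, 79.6 and 67.7 CPM in the sensitive libraries and at 87.0, 39.3 and 38.1 CPM in the resistant libraries, and the groups overlapped through resistant replicate 1. Without that library it was -1.13, with an unadjusted p of 0.00498 and an adjusted p of 0.969 by edgeR. The crosslinking enzymes Lox and Loxl3 stood at 0.49 and 0.092, Itgb1, the beta subunit of the collagen-binding integrins, at 0.24 and Mrc1, a receptor that takes up collagen fragments, at -0.12. Among 28 other matrix genes 21 were tested and none passed either threshold, with 9 fold changes above 0, 12 below and a median of -0.17. Lamc1, a laminin chain of basement membranes, stood at 0.039, Sparc, which binds collagen, at -0.37, Fn1, fibronectin, at -0.37 and Thbs1, thrombospondin-1, at 0.33.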

How the data were processed

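Gene counts and FPKM values of the 6 libraries were used. The authors aligned reads with HISAT2 2.0.5 and counted them per gene with featureCounts 1.5.0-p3, per the submitters' processing notes, and deposited whole-number counts without normalization. The FPKM values were also deposited by the authors and served to compare levels between genes. The notes name build mm9, and the Ensembl IDs of all 44 collagens matched GENCODE M21 (GRCm38), from which positions came. Separation of human tumor reads is not given in the sources used here, nor is strand. For library preparation, rRNA depletion and poly(A) selection are both named. Groups and replicate numbers came from sample titles.

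CPM is the count divided by the library total, times 1000000. Counts were filtered by filterByExpr, normalized by TMM and tested by the quasi-likelihood test of edgeR 4.0.16 (R 4.3.3) with robust fitting and Benjamini-Hochberg adjustment over 15474 genes. Standard errors were derived from the fold change and the F statistic. Alternatives used DESeq2 1.42.0, limma 3.58.1 on log2(FPKM + 1) and log2(FPKM + 0.1), other scalings and filters, a replicate block and leaving out each library. The test was checked on simulated counts with 200 changed genes. Every pair of libraries differed by more than sampling noise.

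The members and lists were chosen with earlier results of these data known. Values per library are given for tested chains among the 4 (others: 6) highest in mean FPKM of their class and for any with unadjusted p under 0.05, and the 2 highest of each subgroup of the other lists are named with their fold change.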

Additional observations from a re-analysis of the deposited data

How the results depend on the processing

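No collagen passed the adjusted threshold under any alternative. Over all genes the count of adjusted calls was 0, but 2 unfiltered and 24 with DESeq2. Unadjusted calls numbered 2036 with no filter, 732 with DESeq2 and 166 (without resistant replicate 3) to 971 (without sensitive replicate 3) when a library was left out. Unadjusted calls among the collagens were 1 with no filter (Col26a1), 1 with DESeq2, 1 with limma-voom and 1 with either FPKM pseudocount (Col6a3 in each), and 0 to 1 with a library left out. For the machinery genes they were 1 with the replicate block (Pcolce2) and 0 to 2 with a library left out. For the other matrix genes they were 1 with no filter, 1 with DESeq2 and 0 to 3 with a library left out. Deviations from the group means correlated at -0.00093, 0.034 and 0.19 between libraries of the same replicate number. Mismatched numbers were not compared, so these values cannot settle whether the samples were paired. The replicate block gave 0 adjusted and 467 unadjusted calls over all genes.

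With a library left out, the log2 fold change ranged from -0.29 to 1.17 for Col1a1, -0.19 to 1.02 for Col1a2, -0.35 to 0.76 for Col5a2, -0.29 to 1.31 for Col4a5, -0.78 to 2.51 for Col4a6, -0.29 to 0.37 for Col18a1, -0.42 to 0.73 for Serpinh1, -0.22 to 0.68 for Bmp1, -0.017 to 0.22 for Loxl3 and -0.38 to 0.77 for Thbs1, lowest in each without resistant replicate 2. It ranged from -0.53 to 0.28 for Col4a1, -0.57 to 0.12 for Col4a2, -0.13 to 0.35 for Col20a1, -0.59 to 0.15 for Col9a3, -0.44 to 0.40 for Mrc1 and -0.20 to 0.20 for Lamc1. The median ranged from -0.24 to 0.21 over the collagens, -0.27 to 0.73 over the fibrillar chains, -0.096 to 0.69 over the type IV chains and -0.17 to 0.17 over the others. The summed log2 ratio ranged from -0.21 to 0.91, -0.45 to 0.26 and -0.70 to -0.38 for these classes. Col4a1 was -0.0050 with at least 10 counts in every library, -0.031 with limma-voom and -0.029 with the replicate block. Mrc1 was 0.00057 with limma-voom, 0.060 and 0.062 with FPKM pseudocounts of 1 and 0.1, and 0.0067 with the replicate block. The cause of these changes was not tested. Scaling the class sums by TMM, added after seeing the data, kept the direction of all 3. There were 3 libraries a group and a common biological coefficient of variation of 42.2%. Even the log2 fold change of -2.37 for Col6a3 had an adjusted p of 0.940 by edgeR. The absence of calls therefore does not exclude small or large differences in single collagens.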
